A study of Mus musculus with 20 samples.

Results

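The genes described here are the chemokines and the cytokines of the interleukin 6 (IL6) family, with the receptors and the growth and alarm cytokines that work beside them, measured in 7 clonal lines of mouse fibroblasts. Members were picked by name and not by a measured level, though with earlier results of these data known: every Ccl, Cxcl and Cx3cl1 gene that a probe set of the array named as its single gene, and 14 further genes. Those 14 are the IL6 family ligands Il6, Il11, Lif and Clcf1, the receptor genes Il6st, Lifr and Osmr, the colony-stimulating factors Csf1, Csf2 and Csf3, and Il1a, Il1b, Il33 and Tslp. With 32 chemokines this made 46 genes, read by 77 probe sets, out of 18193 genes on the array. Where a gene had several probe sets, as 19 members did, the one with the highest mean over all arrays stood for it.

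The lines were derived from Swiss 3T3, an immortalized mouse embryo fibroblast strain, and each is 1 clone. Swiss 2, Swiss 8 and Swiss 9 (3 arrays each) and Swiss 19 (2 arrays) are preadipose, meaning able to become fat cells. Swiss 3, Swiss 5 and Swiss 22 (3 arrays each) are non-adipogenic. All 20 RNA samples came from untreated cells that were still dividing in DMEM with 10% bovine serum, which does not start differentiation, and the class comparison asks which genes already differ at that stage. The labels do not tell if separate cultures of a line were used for its arrays, so p-values among lines measure only the spread between those arrays, which may be technical.

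Chemokines are small secreted proteins that draw cells along a gradient by binding receptors of the G protein-coupled class. They are named for the spacing of their first cysteines (CC, CXC or CX3C). The IL6 family signals through gp130, the product of Il6st, which pairs with a second chain: the IL6 or IL11 receptor for IL6 and IL11, the LIF receptor for LIF and CLCF1, and the oncostatin M receptor encoded by Osmr. These receptors activate JAK kinases, STAT3 and the feedback inhibitor SOCS3. Fibroblasts release many of these proteins when NF-kB or AP-1 is active, and LIF, oncostatin M and IL6 are known to act on adipocyte precursors. The genes lie partly in clusters, so that in RefSeq's annotation of GRCm38.p6 Ccl2, Ccl7, Ccl11, Ccl12, Ccl8 and Ccl1 are neighbours on chromosome 11, as are Ccl5, Ccl9, Ccl6, Ccl3 and Ccl4. Cxcl3, Cxcl15, Cxcl1 and Cxcl2 are neighbours on chromosome 5, and Osmr and Lifr on chromosome 15.

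The deposited intensities were not on a common scale, and levels are given here as scaled intensity, with each array set to the same trimmed mean of 500. A line was above background for a gene when its mean was greater than the background, the 95th percentile over 27 bacterial controls that were not spiked in, which lay between 76.9 and 144 in the 7 lines. All 10 fibroblast markers were above background in all lines, and their summed level was between 353230 and 433010 in preadipose and between 301720 and 321420 in non-adipogenic lines. Vim (vimentin) averaged 88505 ± 16284 (SD, n = 4) in preadipose and 58710 ± 1804 (SD, n = 3) in non-adipogenic lines, without overlap of line means (limma adjusted p = 0.0997). Line means of all other fibroblast markers overlapped between classes. Col1a1, Col1a2, Col3a1, Fn1 and S100a4 had positive log2 class differences (0.12 to 0.78). Thy1, P4hb, Ddr2 and Pdgfrb had negative ones (-0.33 to -0.17). Of 13 measured leukocyte markers, the defining Ptprc (CD45) and Itgam were above background in no line, 11 were in at least 1 and 5 in all, and their summed level ran from 1592 in Swiss 22 to 2778 in Swiss 3. Lyz2, the lysozyme gene of myeloid cells, had a line mean of 877 in Swiss 3 and of 207 to 301 in the other lines (F test over 7 lines, adjusted p = 1.45e-05). Summed endothelial markers ran from 475 to 829, with 4 of 7 above background in at least 1 line and 0 in all: Kdr and Cdh5 in 6 lines each, but Pecam1, Tie1 and Vwf in none. Summed epithelial markers ran from 965 to 1476, with 6 of 7 above background in at least 1 line and 2 in all, Epcam (388 to 825) and Krt8 (155 to 268), and Cdh1 in none. The part of these markers in the results was not tested, and in bulk RNA fewer cells of a type and less RNA per cell cannot be told apart. By their hybridization spikes 11 arrays were dim, those of Swiss 2, Swiss 8 and Swiss 9 with 2 of Swiss 3, and 9 were bright, those of Swiss 19, Swiss 5 and Swiss 22 with 1 of Swiss 3. Swiss 19 is thus the only preadipose line on bright arrays, and Swiss 3 the only non-adipogenic line with dim ones.

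Most of these genes were detected in at least 1 line, as were most genes of the array. Many differed among the preadipose clones, and none passed the test between the classes. Of the 46 members, 40 were above background in at least 1 line (87% of members, against 83.4% of all genes), 25 in all 7 lines and 5 in a single line. Cxcl2, Cxcl3, Cxcl9, Ccl3, Ccl12 and Ccl22, all chemokines, were above background in none. The 7 lines had between 30 and 34 members above background. Levels differed among the 7 lines for 24 of 46 members (limma moderated F test on 20 arrays, adjusted p below 0.05), where 35.8% of all genes passed that test. Counting only genes above background in at least 1 line, 60% of members and 42.9% of all genes passed it. Among the 4 preadipose lines 21 members passed, against 23.2% of all genes, and among the 3 non-adipogenic lines 9 passed, against 16.4%. The background share gives no test for this list, because its members were named with results of these data known.

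Of the 24 members that differed among lines, 7 had their highest mean in Swiss 19 (Ccl20, Ccl5, Csf1, Cxcl5, Il6, Lifr and Tslp) and 6 in Swiss 3 (Ccl2, Ccl8, Cxcl12, Cxcl16, Il6st and Osmr). Swiss 9 was highest for Ccl7, Cxcl1, Cxcl10 and Il11, Swiss 2 for Ccl9, Clcf1 and Il33, Swiss 8 for Ccl17 and Lif, Swiss 5 for Csf2 and Swiss 22 for Cx3cl1. Swiss 2 was the lowest line for 6 of them (Ccl2, Ccl20, Ccl7, Csf1, Cxcl1 and Cxcl5), and Swiss 5 for 5 (Ccl17, Ccl8, Il33, Il6 and Lifr). Swiss 3 was also highest for Lyz2, for the leukocyte sum that includes Lyz2, and for the endothelial and epithelial sums. The epithelial sum was 1476 in Swiss 3 and 1431 in Swiss 2. Of the other leukocyte markers above background somewhere, Tyrobp and Cd53 were also highest in Swiss 3. Adgre1, Fcgr1 and Cd52 were highest in Swiss 2, Laptm5 and S100a8 in Swiss 19, Cd3e and Cd79a in Swiss 8, and Cd68 in Swiss 22.

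**Figure D1:**
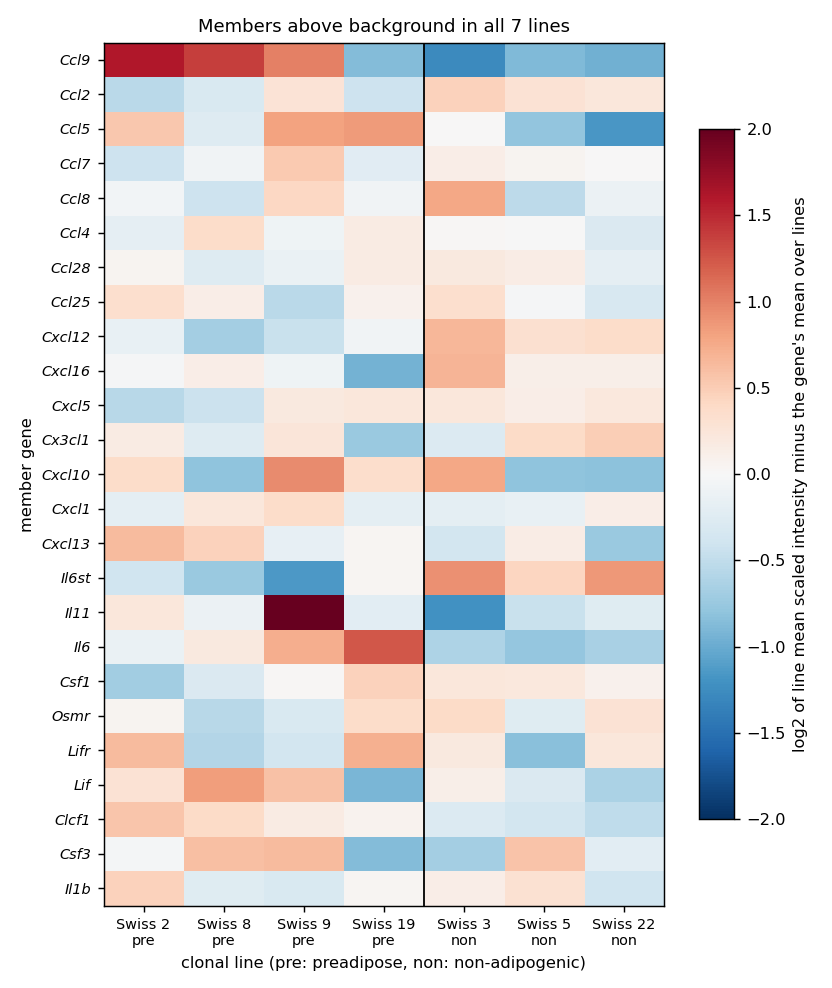
Level of the 25 members above background in all 7 lines, as the log2 of the line mean of scaled intensity minus the gene's mean over the 7 lines (red high, blue low, colours limited at 2 on either side). Columns are the 4 preadipose and then the 3 non-adipogenic lines, and rows are CC chemokines, CXC and CX3C chemokines, and cytokines with receptors. Ccl9 is red in Swiss 2, Swiss 8 and Swiss 9 and blue in Swiss 19, Il11 is red chiefly in Swiss 9, and Il6st is red in the 3 non-adipogenic lines.

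No member passed the test between preadipose and non-adipogenic lines (limma on 7 line means, adjusted p below 0.05): 0 were higher and 0 lower, where 0.583% of all genes were higher and 0.951% lower. At an unadjusted p below 0.05 there were 9 members, where 15.6% of all genes had such a p, 5 with a positive difference (Ccl9, Il6, Ccl5, Clcf1 and Il33) and 4 with a negative one (Il6st, Cxcl12, Ccl2 and Csf2). The median log2 difference was 0.0053 over the members and 0.0033 over all genes. On the normalized log2 scale 7 members had line means that kept the classes apart, against 13.9% of all genes. Il6, Clcf1 and Ccl22 were the 3 with every preadipose line above every non-adipogenic one, though Ccl22 was above background nowhere, and Il6st, Cxcl12, Ccl2 and Csf2 were the 4 with the opposite order. On scaled intensity the line means of Ccl2 overlapped, whereas those of Ccl9 and Il11 also kept the classes apart. The values below describe these genes, whose class differences all missed the threshold over all genes. Folds are ratios of scaled intensity and log2 differences are on the normalized log2 scale, so a fold and the log2 value beside it need not match.

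**Figure D2:**
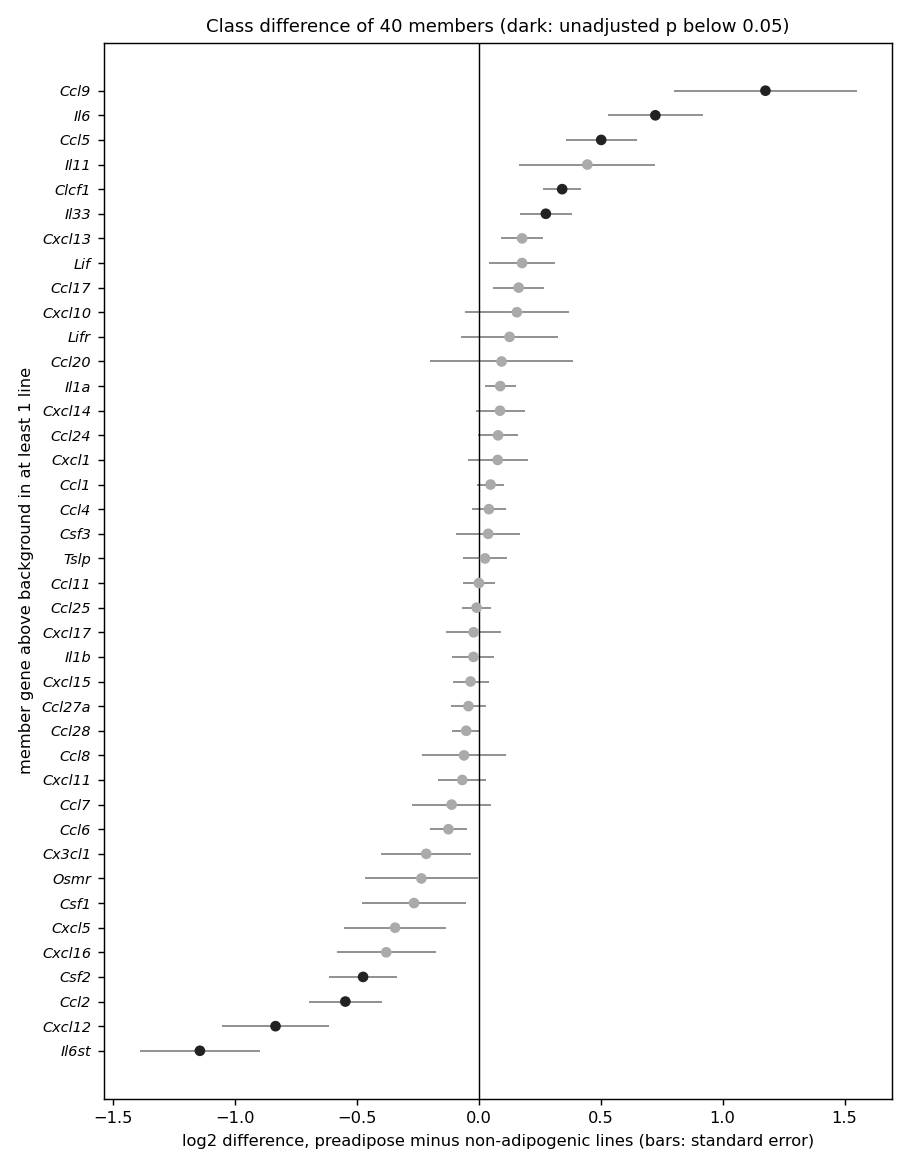
Log2 difference, preadipose minus non-adipogenic lines, for the 40 members above background in at least 1 line, with the standard error from limma on 7 line means as bars. Dark points are the 9 members with an unadjusted p below 0.05; they reach from -1.14 for Il6st to 1.18 for Ccl9, and none passed the threshold after adjustment over all genes.

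Of the members above background in all lines, the gp130 receptor gene Il6st had the largest negative class difference on the normalized log2 scale. Its arrays read 3132, 3474 and 3397 (Swiss 2), 2338, 2450.5 and 3093 (Swiss 8), 1673, 2119 and 2148 (Swiss 9) and 4464 and 4568 (Swiss 19). They read 7764, 8599 and 8458 (Swiss 3), 6660.5, 5519 and 5481 (Swiss 5) and 7211, 9181 and 7639 (Swiss 22). The groups did not overlap: every array of the non-adipogenic lines lay above every array of the preadipose lines, and Swiss 9 was the lowest line. Il6st averaged 3114 ± 1086 (SD, n = 4) in preadipose and 7390.4 ± 1309 (SD, n = 3) in non-adipogenic lines, a 2.37-fold difference (log2 -1.14 ± 0.247 SE, limma adjusted p = 0.0745). All 4 probe sets of Il6st had the same sign, with log2 differences between -1.14 and -0.90. Il6st also differed within each class (adjusted p = 1.57e-05 among preadipose and 0.00193 among non-adipogenic lines), and in the order of line means 5 of 6 neighbouring pairs of lines had no overlapping arrays. Within the dim arrays the difference was -1.55 and within the bright arrays -0.62, each with 1 line standing alone for its class. Without Swiss 19, the preadipose line with the highest Il6st, the difference passed at -1.32 (adjusted p = 0.0322).

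Osmr and Lifr, which encode chains that pair with gp130 and lie side by side on chromosome 15, varied between clones of the same class. Osmr, for the oncostatin M receptor chain, read 4520.2, 5386 and 4873 (Swiss 2), 2662, 3064 and 4019 (Swiss 8), 3548, 3906 and 4039.7 (Swiss 9) and 6738 and 5559 (Swiss 19). In the non-adipogenic lines it read 6217, 6472 and 5969 (Swiss 3), 4486, 3722 and 3891 (Swiss 5) and 5202, 6486 and 5695 (Swiss 22). High and low lines thus occurred in both classes (F test over 7 lines, adjusted p = 1.35e-05), and the class difference of -0.24 ± 0.231 had an adjusted p of 0.735 and was 0.25 within the bright arrays. Lifr, the LIF receptor chain, had line means of 791 (Swiss 2), 340.2 (Swiss 8), 397 (Swiss 9), 838 (Swiss 19), 585 (Swiss 3), 287 (Swiss 5) and 600.3 (Swiss 22). Swiss 19, Swiss 3, Swiss 22 and Swiss 2 were the 4 highest lines for both genes, and Swiss 8, Swiss 9 and Swiss 5 the 3 lowest. A second probe set of Lifr, above background in 6 lines, had Swiss 8 (119) above Swiss 19 (117) and Swiss 22 (93.2). It did not pass the F test over the lines (adjusted p = 0.399 among all probe sets), and the third was above background in no line. Lifr passed the F test over the lines (adjusted p = 0.00115), and its class difference of 0.13 ± 0.198 (adjusted p = 0.862) took the other sign with arrays centred on their medians (-0.052). For both genes only 1 of 6 neighbouring pairs of lines in the order had no overlapping arrays.

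Several genes of the gp130 and NF-kB lists had a similar order of lines; they were picked after the values were seen, from 88 listed genes and members above background in all lines. Lcn2, the iron-binding protein lipocalin 2 and an acute-phase product, correlated with Osmr over the 7 line means at r = 0.969, a value that 0.044% of all genes reached. It was high in Swiss 3 (17401, 18665 and 17187) and Swiss 19 (14552 and 12649) and low in Swiss 5 (5847, 4611 and 4566) and Swiss 8 (2750.2, 4105 and 5810.1). Saa3, an acute-phase serum amyloid A gene, had r = 0.918 with Osmr, and Pim1, a kinase gene induced by STAT signalling, had r = 0.957 with Lifr, reached by 0.379% and 0.022% of all genes. Socs3, the feedback inhibitor of gp130 signalling, for which no correlation is given, was highest in Swiss 2 (3138, 2926 and 3012) and lowest in Swiss 5 (1195, 1186 and 1195). By contrast Osmr was highest in Swiss 3 and Lifr in Swiss 19, though Lifr too was lowest in Swiss 5. These correlations describe 7 clones that share arrays for all genes, and no p is attached to them. By the same measure, the gene nearest to Il6st among these 88 was Crlf2, the TSLP receptor chain (r = 0.965), followed by the member Cxcl12 (r = 0.949) and the adhesion receptor gene Vcam1 (r = 0.949), values that 0.159%, 0.352% and 0.379% of all genes reached.

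**Figure D3:**
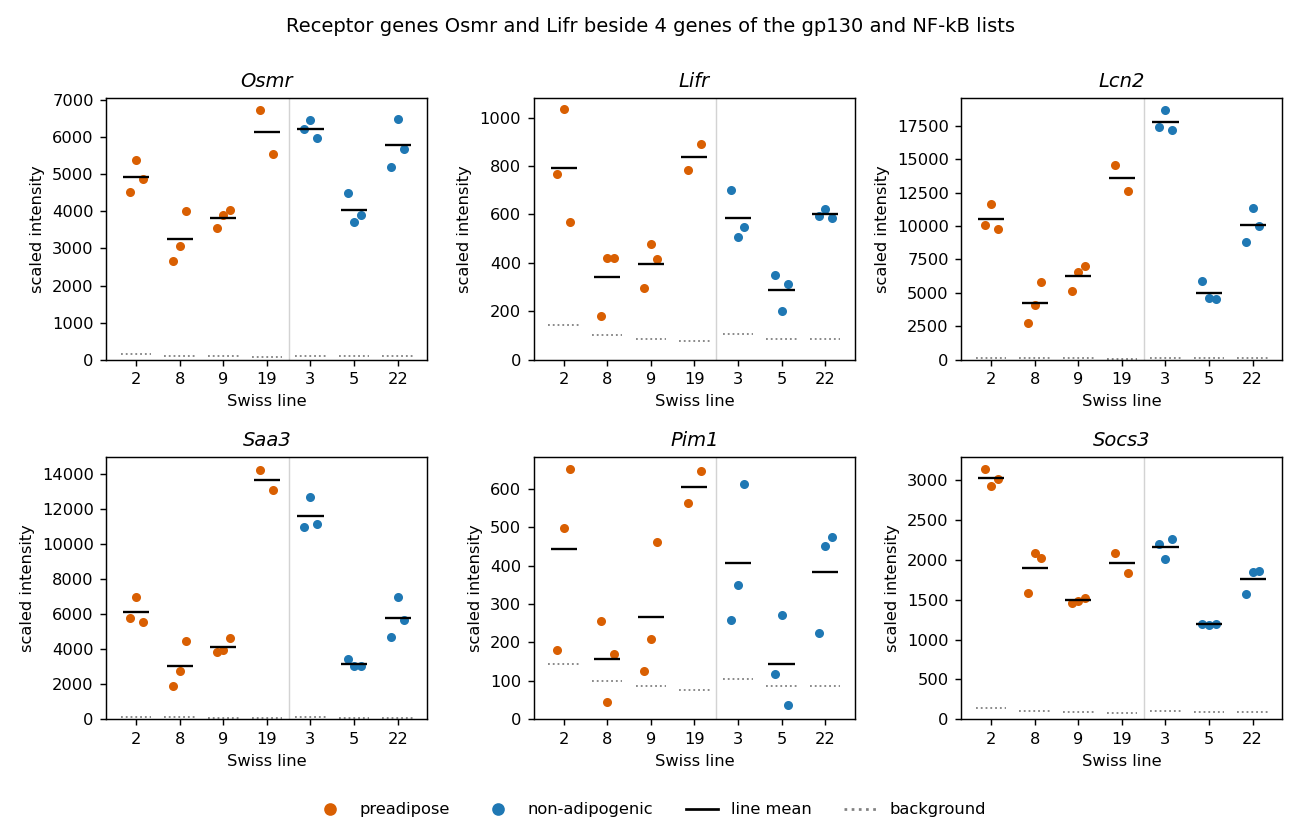
Scaled intensity of Osmr, Lifr, Lcn2, Saa3, Pim1 and Socs3 on each of the 20 arrays, by clonal line; black bars are line means, dotted grey bars the background of the line, orange points preadipose and blue points non-adipogenic lines. Osmr, Lcn2 and Saa3 are high in Swiss 19 and Swiss 3 and low in Swiss 8 and Swiss 5, so that high and low lines occur in both classes.

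Among the IL6 family ligands, Il6 itself showed the opposite class order to its receptor chain Il6st. Its arrays read 764, 719 and 672 (Swiss 2), 782, 879.7 and 1030.2 (Swiss 8), 1013, 1398 and 1504 (Swiss 9) and 1946 and 1782 (Swiss 19). The non-adipogenic lines lay close together, at 479.7, 527 and 527 (Swiss 3), 471, 478 and 430.0 (Swiss 5) and 518, 500.2 and 480.3 (Swiss 22). Every preadipose array was above every non-adipogenic array, while the preadipose lines were spread over a wide range, with Swiss 19 highest. Il6 averaged 1196 ± 508 (SD, n = 4) in preadipose and 490.1 ± 27.2 (SD, n = 3) in non-adipogenic lines, a 2.44-fold difference (log2 0.72 ± 0.196, adjusted p = 0.124). With the array brightness as a block the difference was 0.89 and passed the threshold (adjusted p = 0.0492), and with Swiss 3 entered in that block by its dim arrays alone it was 0.88 and did not (adjusted p = 0.0839). It was 0.56 within the dim and 1.22 within the bright arrays. The preadipose lines differed among themselves in Il6 (adjusted p = 7.23e-06), and the non-adipogenic lines gave an adjusted p of 0.958.

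Clcf1, a ligand of the CNTF receptor complex, was above background in all lines, with means of 712 (Swiss 2), 633 (Swiss 8), 545 (Swiss 9) and 510.4 (Swiss 19). The non-adipogenic lines had 404 (Swiss 3), 376 (Swiss 5) and 341 (Swiss 22), below all 4 others. The difference was 1.61-fold (log2 0.34 ± 0.0783, adjusted p = 0.0846). A second of its 3 probe sets, tested among all probe sets, gave 0.41 with an adjusted p of 0.0488, and the third 0.12. Without normalization between arrays, where the median of all genes shifted by -0.19, the difference of the probe set used was -0.0034.

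Il11, whose product is known to inhibit fat cell formation in culture, and Lif had line means that overlapped between classes on the normalized log2 scale. On scaled intensity those of Il11 did not overlap, with Swiss 19 just above Swiss 22. Il11 stood out in Swiss 9, whose arrays read 1103, 1303 and 1086. Its line means elsewhere were 337 (Swiss 2), 267 (Swiss 8), 248 (Swiss 19), 125 (Swiss 3), 212 (Swiss 5) and 244 (Swiss 22). No array of another line reached those of Swiss 9 (F test over 7 lines, adjusted p = 4.2e-06), and the class difference of 0.45 ± 0.279 had an adjusted p of 0.531. Lif had line means of 293 (Swiss 2), 427 (Swiss 8), 359 (Swiss 9) and 126 (Swiss 19), against 260.4 (Swiss 3), 196 (Swiss 5) and 155 (Swiss 22). Neighbouring lines all overlapped in Lif, its F test passed narrowly (adjusted p = 0.0391, and passed in 13 of 31 alternative settings), and its class difference was 0.18 ± 0.134 (adjusted p = 0.625).

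The Il6 promoter is printed because its sequence holds matches to 3 of the 4 motifs searched, those of NF-kB, AP-1 and C/EBP. Sequences are from RefSeq's GRCm38.p6, 250 bases before the start site, 5′ to 3′ on the plus strand at chr5:30012864-30013113. Capitals mark, in this order, an AP-1, a C/EBP and an NF-kB match.
Il6: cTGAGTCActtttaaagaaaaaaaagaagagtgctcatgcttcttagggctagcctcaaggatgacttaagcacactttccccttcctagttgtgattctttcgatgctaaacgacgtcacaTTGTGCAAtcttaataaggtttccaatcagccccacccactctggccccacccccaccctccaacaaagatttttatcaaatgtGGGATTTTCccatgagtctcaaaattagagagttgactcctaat
The NF-kB match of Il6 begins 44 bases and its AP-1 match 249 bases before the start site, with the C/EBP match between them.

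The searched window ran from 250 bases before to 50 after the start site on both strands, and 33 members had at least 1 entry in the table, 39 entries in all. The NF-kB letters GGGANNTTC were in 8 of the 39 (20.5%, against 3.94% of 32851 promoters) and the AP-1 letters TGANTCA in 10 (25.6%, against 7.81%). The STAT letters TTCNNNGAA were in 2 (5.13%, against 8.3%) and the C/EBP letters TTGCNNAA in 6 (15.4%, against 10.8%). A match describes letters only, and related chemokine genes share sequence, so the entries are not independent of each other.

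The CXC chemokines Cxcl1, Cxcl2 and Cxcl3, which attract neutrophils, are printed because they share a promoter element while only Cxcl1 was detected. Each holds the same 11 bases, GGGAATTTCCC, which read as NF-kB letters on both strands, shown in capitals within the 250 bases before the start site. The windows are chr5:90890995-90891244 for Cxcl1, chr5:90903649-90903898 for Cxcl2 and chr5:90785851-90786100 for Cxcl3, all on the plus strand.
Cxcl1: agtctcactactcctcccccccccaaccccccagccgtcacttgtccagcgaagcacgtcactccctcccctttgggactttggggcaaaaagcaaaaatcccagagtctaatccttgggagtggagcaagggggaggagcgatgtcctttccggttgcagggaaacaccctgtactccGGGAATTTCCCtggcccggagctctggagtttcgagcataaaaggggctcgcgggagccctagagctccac
Cxcl2: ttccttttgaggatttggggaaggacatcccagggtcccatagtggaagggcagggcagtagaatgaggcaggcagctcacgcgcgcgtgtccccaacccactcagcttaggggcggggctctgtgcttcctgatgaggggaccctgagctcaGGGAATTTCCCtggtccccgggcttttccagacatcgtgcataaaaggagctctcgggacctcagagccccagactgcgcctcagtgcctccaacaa
Cxcl3: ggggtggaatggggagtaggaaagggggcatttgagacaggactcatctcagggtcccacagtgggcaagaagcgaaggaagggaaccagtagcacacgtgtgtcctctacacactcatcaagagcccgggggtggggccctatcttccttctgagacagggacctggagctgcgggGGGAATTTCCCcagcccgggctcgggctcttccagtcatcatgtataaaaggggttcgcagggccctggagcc
Cxcl1 was above background in all lines, with means from 14940 (Swiss 2) to 22281 (Swiss 9), and differed among lines (adjusted p = 0.000907), and its class difference did not pass (log2 0.078 ± 0.123, adjusted p = 0.863). Cxcl2 and Cxcl3 were above background in no line, with highest line means of 94.3 (Swiss 8) and 80.0 (Swiss 9). Their probe sets are different, so levels are not compared between the 3 genes.

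Of the other CXC chemokines, Cxcl12 had the largest class difference. CXCL12 is the ligand of CXCR4 and a retention factor made by stromal cells. Its arrays read 40229, 44037 and 40351 (Swiss 2), 25103, 27689 and 33299 (Swiss 8), 32539, 33877 and 34387 (Swiss 9) and 43529 and 44156 (Swiss 19). The non-adipogenic arrays read 73518, 72432 and 73351 (Swiss 3), 60354, 55612 and 55725 (Swiss 5) and 55584, 63820 and 58406 (Swiss 22), and the groups did not overlap. Cxcl12 averaged 36920 ± 7021 (SD, n = 4) in preadipose and 63200 ± 8634 (SD, n = 3) in non-adipogenic lines, a 1.71-fold difference (log2 -0.83 ± 0.220, adjusted p = 0.117). The gene's other probe sets did not share it: a second gave -0.21, with line means from 11892 in Swiss 8 to 25014 in Swiss 19, and the third 0.22. The difference was -1.04 within the dim and -0.25 within the bright arrays, and without the line Swiss 19 it was -1.03 (adjusted p = 0.0196).

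Cxcl16, a membrane-bound scavenger receptor and chemokine, was highest in Swiss 3, with 2450.4, 2172 and 2428, and lowest in Swiss 19, with 770.5 and 759. The other 5 lines had means between 1381 (Swiss 9) and 1618 (Swiss 8). It differed within both classes (adjusted p = 0.00111 and 0.00495), and its class difference was -0.38 ± 0.203 (adjusted p = 0.443). That difference passed in 2 settings, with the hybridization spikes as covariate (-0.79, adjusted p = 0.0275) and with the brightness block and Swiss 3 by its dim arrays (-0.61, adjusted p = 0.0251). Cxcl5, a neutrophil chemokine, was 12240, 12143 and 12241 (Swiss 2) and 10866, 14407 and 14585 (Swiss 8), while the other 5 line means lay between 19627 and 21124. No array of Swiss 2 or Swiss 8 reached an array of another line (F test over 7 lines, adjusted p = 1.01e-06). Its class difference was -0.34 ± 0.209 (adjusted p = 0.518) and 0.16 within the bright arrays. The interferon-inducible Cxcl10 also crossed the classes, with means of 696 (Swiss 9) and 619.8 (Swiss 3) against 204 (Swiss 22), 206 (Swiss 8) and 206 (Swiss 5) (adjusted p = 0.00187). Cx3cl1, the membrane-anchored fractalkine, ran from 616 (Swiss 19) to 1449 (Swiss 22) (adjusted p = 0.000134).

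**Figure D4:**
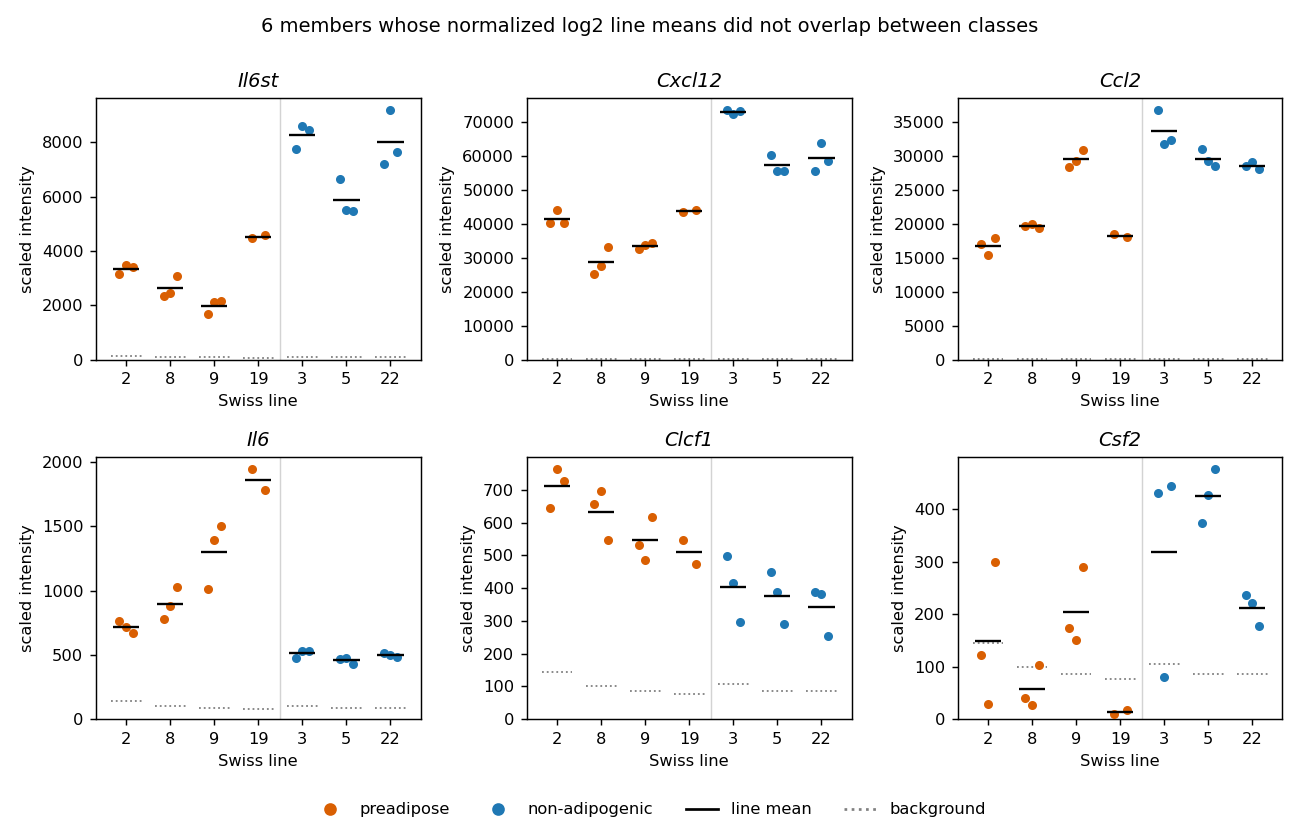
Scaled intensity of Il6st, Cxcl12, Ccl2, Il6, Clcf1 and Csf2 on each of the 20 arrays, by clonal line; black bars are line means, dotted grey bars the background of the line, orange points preadipose and blue points non-adipogenic lines. The 4 preadipose line means lie on one side of the 3 non-adipogenic ones in each panel but that of Ccl2, where Swiss 9 overlaps Swiss 5 and Swiss 22 on this scale.

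The CC chemokine Ccl2 (MCP-1), which recruits monocytes and is known to be secreted by preadipocytes, was lowest in Swiss 2, Swiss 19 and Swiss 8. Its arrays read 16936, 15343 and 17840 (Swiss 2), 19591, 19949 and 19315 (Swiss 8), 28385, 29182 and 30895 (Swiss 9) and 18406 and 18082 (Swiss 19). In the non-adipogenic lines they read 36694, 31749 and 32322 (Swiss 3), 30936, 29174 and 28456 (Swiss 5) and 28420, 29123 and 28078 (Swiss 22). Arrays of Swiss 2, Swiss 8 and Swiss 19 lay below all others, while those of Swiss 9 overlapped Swiss 5 and Swiss 22. On the normalized log2 scale the classes stayed apart, but in scaled intensity the mean of Swiss 9, 29488, was above that of Swiss 22, 28540. Ccl2 averaged 21014 ± 5773 (SD, n = 4) in preadipose and 30550 ± 2676 (SD, n = 3) in non-adipogenic lines, a 1.45-fold difference (log2 -0.55 ± 0.149, adjusted p = 0.127). Without the line Swiss 9 the difference was -0.68 and passed (adjusted p = 0.0355). It was -0.65 within the dim and -0.57 within the bright arrays.

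Ccl7 (MCP-3), the neighbour of Ccl2 and a ligand of overlapping receptors, shared the high level in Swiss 9 but not the class order. Swiss 9 read 14098, 13512 and 14484, above every array of every other line, Swiss 2 was lowest at 7304, 7007 and 7795, and the class difference was -0.11 ± 0.163 (adjusted p = 0.849). Ccl8 (MCP-2), of the same cluster, was highest in Swiss 3 (859, 1169.5 and 929) and lowest in Swiss 5 (338, 444 and 422), and it differed within both classes (adjusted p = 0.00648 and 2.78e-05). The remaining genes of that cluster were at or near background: Ccl12 in all lines, Ccl11 in all but Swiss 5 (98.7), and Ccl1 with line means of at most 139. Ccl2 and Ccl8 thus shared Swiss 3 as the highest line, and Ccl7 was highest in Swiss 9.

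Ccl9 (MIP-1 gamma), a ligand of CCR1, had the widest range of line means on the normalized log2 scale of all called members, though not the largest ratio of scaled line means, and divided the preadipose lines. Its arrays read 2926, 2284 and 2947 (Swiss 2), 1924, 2480 and 2602 (Swiss 8) and 1842, 1904 and 1696 (Swiss 9), but 477 and 511 (Swiss 19). The non-adipogenic arrays read 344, 349.9 and 416 (Swiss 3), 547, 484 and 425 (Swiss 5) and 459.5, 471 and 456 (Swiss 22). Swiss 19 thus lay within the range of the non-adipogenic arrays, and the 3 other preadipose lines lay above all of these arrays. Ccl9 averaged 1840.5 ± 971 (SD, n = 4) in preadipose and 439 ± 61.0 (SD, n = 3) in non-adipogenic lines, a 4.19-fold difference that did not pass (log2 1.18 ± 0.374, adjusted p = 0.183), whereas the difference among preadipose lines did (adjusted p = 1.03e-08). Without Swiss 19 the class difference was 1.54 (adjusted p = 0.00860). All 3 lines with high Ccl9 were on dim arrays and Swiss 19 on bright ones, so the difference within the dim arrays, against Swiss 3 alone, was 1.74 (adjusted p = 0.0426) and that within the bright arrays, Swiss 19 against the others, 0.037. The arrays of Swiss 3, dim and bright, read below all those of Swiss 5 and Swiss 22. Its second probe set had the same order of preadipose lines, from 1379 in Swiss 2 to 254 in Swiss 19.

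Ccl5 (RANTES), the neighbour of Ccl9, did not follow it. Its line means were 605 (Swiss 2), 346 (Swiss 8), 726 (Swiss 9) and 748 (Swiss 19), against 418 (Swiss 3), 239 (Swiss 5) and 186 (Swiss 22). The class difference was 2.16-fold (log2 0.50 ± 0.146, adjusted p = 0.149), with Swiss 8 below Swiss 3. Ccl20, the ligand of CCR6, was highest in Swiss 19, whose arrays read 766 and 836. Means of the other lines ran from 44.4 (Swiss 2), below its background, to 226 (Swiss 5), whose arrays spread from 120 to 403. No other array reached those of Swiss 19 (F test over 7 lines, adjusted p = 0.000434), and the class difference of 0.094 ± 0.294 became -0.20 without that line. Ccl17 was highest in Swiss 8 (243) and above background in 4 lines (adjusted p = 0.0232).

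**Figure D5:**
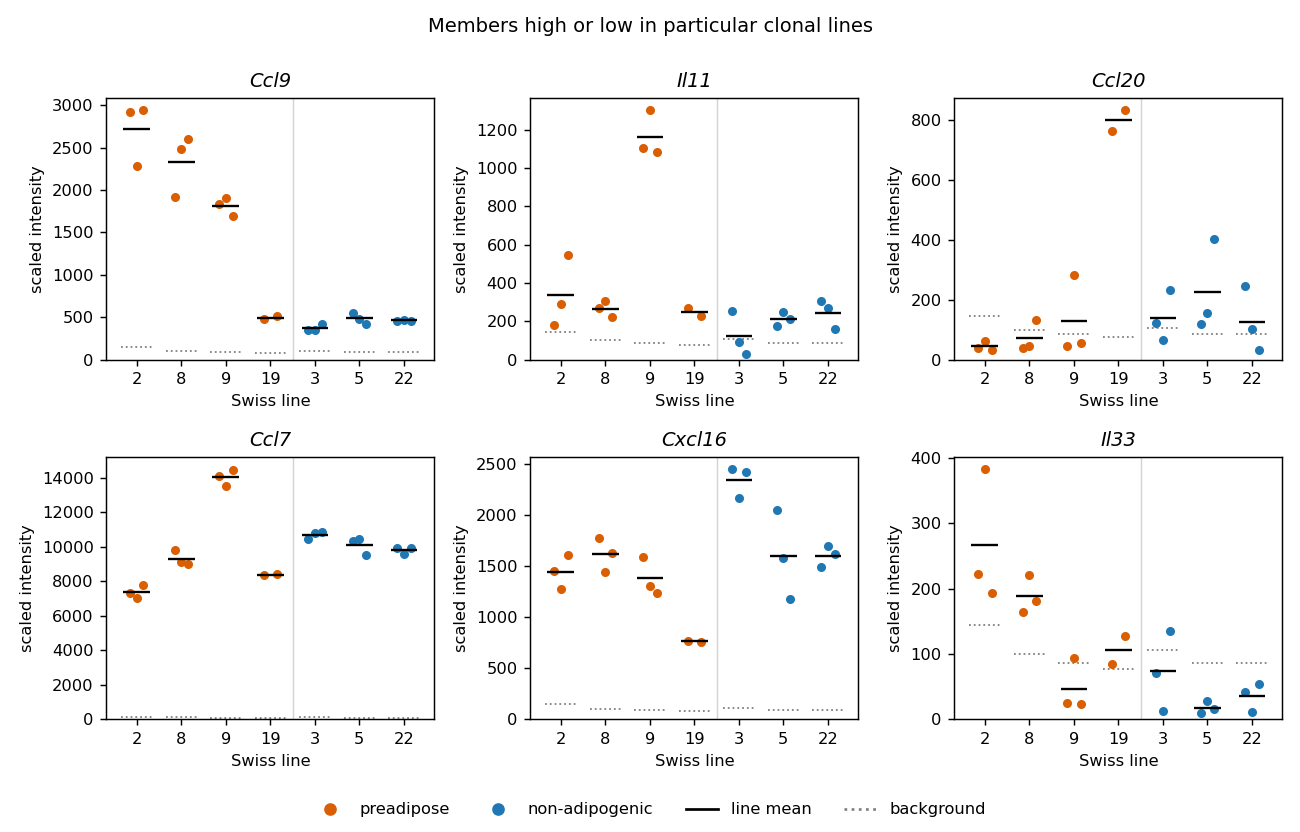
Scaled intensity of Ccl9, Il11, Ccl20, Ccl7, Cxcl16 and Il33 on each of the 20 arrays, by clonal line; black bars are line means, dotted grey bars the background of the line, orange points preadipose and blue points non-adipogenic lines. Ccl9 is high in Swiss 2, Swiss 8 and Swiss 9 only, Il11 and Ccl7 are highest in Swiss 9, Ccl20 in Swiss 19, Cxcl16 is lowest in Swiss 19, and Il33 is above background in Swiss 2, Swiss 8 and Swiss 19.

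The colony-stimulating factors, which drive myeloid growth, went different ways. Csf1, the macrophage factor, had line means of 2974 (Swiss 2), 3939.9 (Swiss 8), 4890.5 (Swiss 9) and 6617 (Swiss 19). Swiss 3, Swiss 5 and Swiss 22 had 5683, 5583 and 5115, so on this probe set preadipose lines held both the lowest and the highest level. On every other probe set of Csf1 a preadipose line was lowest, but Swiss 3 was highest. Swiss 3 had 5374, 1933 and 1034 there, against 5219, 1614 and 935 in Swiss 19. Csf1 differed among preadipose lines (adjusted p = 3.15e-06), and its class difference was -0.27 ± 0.215 (adjusted p = 0.661), but 0.33 within the bright arrays. Csf2 (GM-CSF) read 122, 28.1 and 299 (Swiss 2), 41.2, 27.3 and 104 (Swiss 8), 174, 151 and 289.5 (Swiss 9) and 10.3 and 17.1 (Swiss 19). In the non-adipogenic lines it read 431, 80.0 and 445 (Swiss 3), 375, 428 and 476 (Swiss 5) and 238, 221 and 177 (Swiss 22). Only Swiss 2 and Swiss 9 of the preadipose lines were above background, line means did not overlap, and single arrays did. Csf2 averaged 106 ± 86.6 (SD, n = 4) in preadipose and 319 ± 107 (SD, n = 3) in non-adipogenic lines, at least 2.40-fold apart when lines not above background are set to it (log2 -0.47 ± 0.139, adjusted p = 0.150). Csf3 (G-CSF) was above background in all lines, between 94.3 (Swiss 19) and 267 (Swiss 9), and missed the F test (adjusted p = 0.0516).

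Of the alarm cytokines, Il33 read 223, 382 and 193 (Swiss 2), 165, 220.5 and 181 (Swiss 8) and 84.0 and 127 (Swiss 19). In Swiss 9 and in the 3 non-adipogenic lines its means, at most 73.0, were not above background, so the class difference was at least 1.64-fold (log2 0.28 ± 0.107, adjusted p = 0.273), and the F test over the lines passed (adjusted p = 0.000812). Tslp, which acts through Crlf2 and the IL7 receptor, was above background in Swiss 19 alone, at 149 and 148 (adjusted p = 0.0220). Il1b was above background in all lines, between 225 (Swiss 22) and 409 (Swiss 2), and Il1a only in Swiss 9 and Swiss 19, and neither passed a test.

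The remaining members above background passed neither the test among lines nor that between classes. They were Ccl4, Ccl25, Ccl28 and Cxcl13, above background in all lines, and Ccl1, Ccl6, Ccl11, Ccl24, Ccl27a, Cxcl11, Cxcl14, Cxcl15 and Cxcl17, above it in some. Their highest line mean was that of Cxcl13 in Swiss 2, 342. Ccl27a has near-identical copies in the mouse genome, so its source is uncertain.

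The receptors and signal transducers of these pathways were counted from 5 lists with 114 entries, 104 of them measured and drawn up with earlier results of these data known. Between classes, 0 were higher and 2 were lower, where 0.583% of all genes were higher and 0.951% lower. The F test over the lines was passed by 35.8% of all genes. Ptpn11, the phosphatase SHP2 that docks on gp130, was called in the list of gp130 receptors and JAK-STAT genes (1 of 22 measured, and 13 passed the F test over the lines). Its arrays read 5763, 4779 and 4770.3 (Swiss 2), 4921, 5010 and 5348 (Swiss 8), 4892, 5120.2 and 5695 (Swiss 9) and 5061 and 5071 (Swiss 19). In the non-adipogenic lines they read 6527, 7037 and 6391 (Swiss 3), 7214, 6793 and 7721 (Swiss 5) and 6175, 6272 and 6358 (Swiss 22). No array of one class overlapped the other, and Ptpn11 was 1.31-fold lower in preadipose lines (log2 -0.37 ± 0.0623, adjusted p = 0.0397). Vcam1, an adhesion receptor induced by NF-kB, was the 1 called gene of 22 measured in the NF-kB list, where 16 passed the F test. It was 2.33-fold lower (log2 -1.18 ± 0.161, adjusted p = 0.0214), and Swiss 19 (7805 and 8009.7) was the preadipose line nearest to the non-adipogenic ones, of which Swiss 3 read 13012, 13197 and 12590. Both calls were lost in 6 of 7 fits with 1 line left out: leaving out Swiss 2, Swiss 8, Swiss 9, Swiss 3 or Swiss 22 left 0 of the 104 genes called. Leaving out Swiss 5 left 1, Tnip1, and leaving out Swiss 19 gave 4, Ptpn11, Vcam1, Csf2ra and Crlf2, all lower. The share of all genes called in these fits is not given, so the changes are not read as particular to the listed genes.

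No gene was called between classes in the other lists. Of all genes, 35.8% differed among the 7 lines and 13.9% had line means that did not overlap between classes. Of 21 measured chemokine receptors, 2 differed among lines: Cxcr3, and Ackr3, the scavenger receptor of CXCL12, with 335, 369.9 and 391 (Swiss 3), 640.3, 667 and 592 (Swiss 5) and 1104, 1200.3 and 937 (Swiss 22) against 1095, 1491 and 1099 (Swiss 9). Ackr4 was the 1 receptor with non-overlapping line means (log2 0.15, adjusted p = 0.248). Of 32 measured genes of IL1, TNF and Toll-like receptor signalling, 16 differed among lines. The IL1 receptor accessory chain Il1rap (log2 0.47, adjusted p = 0.170) and the Toll-like receptor gene Tlr6 (log2 -0.35, adjusted p = 0.0760) were among the 4 without overlap. Of 7 receptor genes for colony-stimulating factors and TSLP, 3 differed among lines and had no overlap of line means between classes, 1 higher and 2 lower in preadipose lines. Csf1r, the receptor for M-CSF, averaged 658 ± 74.7 (SD, n = 4) in preadipose and 465 ± 36.0 (SD, n = 3) in non-adipogenic lines (log2 0.27 ± 0.0608, adjusted p = 0.0825). Csf2ra, the receptor chain for GM-CSF, read 499, 719.7 and 445 (Swiss 3) and 290.4 and 207 (Swiss 19) and was not above background in Swiss 2, Swiss 8 or Swiss 9, at least 2.50-fold lower in the preadipose mean (log2 -0.54, adjusted p = 0.141). Crlf2 was 1.63-fold lower in the preadipose mean (log2 -0.55, adjusted p = 0.0977), from 1150, 1398 and 1070.2 (Swiss 8) to 2822, 2446 and 2579 (Swiss 3). All 3 missed the threshold.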

How the data were processed

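Total RNA of 20 samples was primed with oligo-dT and hybridized as biotinylated RNA to 1 array each, per the labels' protocols. The values deposited by the authors were linear intensity values of 45101 probe sets, not on a common scale (array means from 26.8 to 160.2); how they were summarized and scaled is not given in the sources used here. No detection call or scan date was used here.

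Values were taken as log2(intensity + 32) and quantile-normalized without the 64 control probe sets. The pseudocount compresses log2 differences, most strongly those of dim genes. The class difference of Il6 was 0.72 with a pseudocount of 32 and 1.02 with one of 8. A gene was the probe set with the highest mean among 34945 with 1 symbol in the platform annotation (932 had several and 9160 none). Classes were compared with limma 3.58.1 in R 4.3.3 on the 7 line means, and lines with its moderated F test on 20 arrays, with Benjamini-Hochberg adjustment over 18193 genes and a threshold of 0.05. The scripts were tested on simulated data. Scaled intensity sets each array to a trimmed mean of 500 (2% off each end). Folds are ratios of class means over lines, with lines of the dimmer class that were not above background set to it, and are then written as at least that large. The number of arrays limits the precision.

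The members, the pathway lists and the tests were chosen with earlier results of these data known. Named in full were members called between classes and the 12 whose line means had the largest range among those above background and called among lines. Il6st, Lifr, Osmr, Il6, Lif, Il11, Csf1, Cxcl12 and Ccl2 always had values. From each pathway list up to 4 called genes, or else up to 2 without overlap of line means, were named. Other names were chosen after their values were seen. Replicate numbers did not pair arrays: same-numbered arrays of different lines deviated together with a mean correlation of 0.0014 (from -0.068 to 0.094). Arrays of a line correlated at 0.970 to 0.992, and no pair had more than 2.59% equal probe sets. No protein sequence was used here.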

Additional observations from a re-analysis of the deposited data

Results flagged for a closer look

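Among 40 members tested over the 4 preadipose line means on the normalized log2 scale, 3 had a line far from the others, where chance flags about 1 in 20 groups. Gaps are given on that scale and levels as scaled intensity. Il11 was highest in Swiss 9, with a gap to the next line of 0.908 of the whole range, and its arrays there read 1103, 1303 and 1086. Ccl24, known as eotaxin-2, was highest in Swiss 2, with a gap of 0.951 of the range, but Swiss 2, at 172, was also its only line above background. Ccl25, an attractant of thymocytes, was lowest in Swiss 9, with a gap of 0.967 of the range. In scaled intensity Swiss 9 was at 119 against 183 to 219 in the other preadipose lines, where the gap was a smaller part of the range. Neither Ccl24 nor Ccl25 passed the F test over the lines (adjusted p = 0.239 and 0.923).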

How the results depend on the processing

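Of 41 alternative settings of the class comparison, most left the count of called members at 0, and leaving out any 1 array did so in every case. The count was 1 with a pseudocount of 8 or without genes at background (Il6st), with the mean over probe sets or every probe set tested (Clcf1), without the line Swiss 9 (Ccl2), with brightness as a block (Il6), with Swiss 3 by its dim arrays in that block, an alternative chosen after seeing the data, or with the spike level as a covariate (Cxcl16), and within the dim arrays (Ccl9). It was 4 without the line Swiss 19 (Ccl9, Clcf1, Cxcl12 and Il6st). It was 9 with the 20 arrays as samples and the line as a random block, a fit in which arrays of a line still add to the number of samples. With the replicate block it was 0. The 2 pathway genes called became 1 with scaling before the pseudocount, without Swiss 5, with Swiss 3 by its dim arrays in the block and with the spike level as covariate, 0 with median centring, without normalization, without Swiss 2, Swiss 8, Swiss 9, Swiss 3 or Swiss 22 and within the bright arrays, 4 without Swiss 19, with the brightness block and within the dim arrays, and 18 with the random block. They ran from 2 to 3 with an array left out. The 24 members called among lines became 15 within the dim and 15 within the bright arrays, which hold fewer lines, were 25 with the replicate block, and ran from 22 to 26 with an array left out. The share of all genes called in each setting is not given beside these counts. Their changes are therefore not read as particular to the members or the pathway genes. The count above background ran from 39 to 41 with an array left out, which does not vary the cutoff itself. Its value at a higher background, or with every array of a line required above it, is not given here. Some members were above background only by part of the arrays of their single line. Ccl24 read 321, 31.6 and 164 in Swiss 2, Ccl11 172, 22.1 and 102 in Swiss 5, and Cxcl15 192, 79.6 and 42.7 in Swiss 8. Of single genes, Ccl20 reversed to -0.046 with scaling first and to -0.20 without Swiss 19. Csf1 reversed to 0.33 within the bright arrays and 0.064 with the spike covariate, Osmr to 0.25 and Cxcl5 to 0.16 within the bright arrays. Lifr reversed to -0.052 with median centring, -0.18 without normalization, -0.025 without Swiss 5 and -0.13 within the dim arrays. Lif reversed to -0.088 without normalization, -0.11 within the bright arrays and -0.024 with the spike covariate, and Clcf1 to -0.0034 without normalization. The causes were not tested. Members near background have only bounds, each part of the brightness split holds 1 class by a single line, assumed to vary like the others, and 7 clones limit what the class comparison can show.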
